A study of Mus musculus with 6 samples.

Results

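The genes described are 10 regulators of mineral deposition and of the bone and cartilage programmes, taken by gene symbol from the 20199 genes of the deposited count table. All 10 were found there, 6 inhibitors of calcification (Ank, Enpp1, Nt5e, Mgp, Spp1 and Tnfrsf11b) and 4 drivers (Alpl, Runx2, Sox9 and Msx2). RNA was sequenced from aortic smooth muscle cells of C57B6 mice 12 weeks old, with 3 libraries per genotype. Wild-type (WT) cells had the genotype WT/mTmG/ Myh11ERT2, in which mTmG is a Cre-dependent colour reporter and Myh11ERT2 an inducible construct driven from the myosin heavy chain gene of smooth muscle. Knockout (KO) cells had both of these and floxed miR-21 alleles (miR-21fl/fl), and their label gives the group as miR21 -/-. The sources used here do not state whether an inducer was given, in which cells deletion took place, how the cells were obtained or whether each library is a separate animal. All p-values therefore describe the spread between these libraries, which may be technical in part.

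Vessel walls hold back calcium phosphate crystals by making inhibitors locally. Enpp1 makes pyrophosphate from extracellular ATP, Ank carries pyrophosphate or ATP out of the cell, and Alpl, tissue-nonspecific alkaline phosphatase, destroys pyrophosphate. Mgp and Spp1 encode secreted proteins that bind mineral, and Runx2, Sox9 and Msx2 are transcription factors of bone and cartilage formation that appear in smooth muscle cells of calcifying arteries.

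Ank, the pyrophosphate and ATP exporter, had the smallest p of the members tested, with 3 KO libraries above all 3 WT libraries, at 110 ± 8.67 CPM (the usual depth-scaled count, SD, n = 3) against 75.2 ± 12.9 CPM. Runx2, the master factor of osteoblasts, lay the other way in every KO library, but at no more than 1.01 CPM throughout. The other members overlapped between the genotypes. In edgeR's test over all genes, 0 of the 9 members tested had an adjusted p under 0.05, as did 0 of all 15185 genes (0.0%). Nt5e had too few counts to be tested. DESeq2 called 0 members and 0.396% of all genes, and edgeR without WT replicate 1 called 0 members and 0.0593% of all genes. At an unadjusted p under 0.05 edgeR listed 1 member, Ank, and 6.29% of all genes (2.85% higher and 3.44% lower in KO). CPM values of the groups did not overlap for 2 of the 9 tested members, against 14.5% of all genes. Ank was higher, against 6.95% of all genes, and Runx2 was lower, against 7.57%. With 9 members these counts are near the background and say nothing particular about the list.

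The microRNA itself was not analysed here, so its deletion was not checked in any library. Vmp1, the gene whose span holds it, ranged from 44.0 to 52.7 CPM in WT and from 51.7 to 59.5 CPM in KO, which checks nothing about the deletion. Libraries held 17123748 to 28610649 counts. WT replicate 1 stood apart on the first principal component (−58.1, against 1.53 to 27.3 for the other 5 libraries, with 40.6% of the variance). The 8 smooth muscle markers summed to between 42246 and 48608 CPM in WT and between 43649 and 44731 CPM in KO, so they were abundant in every library. Of the 8, 1 was fitted higher and 7 lower in KO, with a median log2 fold change of −0.11, and 0 passed in edgeR. Within the sum, WT replicate 1 was the lowest library for Myh11 (6560 CPM) and Myocd (189 CPM). It was the highest for Acta2, Cnn1, Des, Lmod1, Smtn and Tagln. The 9 macrophage markers in the table summed to 4.16 to 9.03 CPM in WT and 1.59 to 8.98 CPM in KO, and their defining gene Adgre1 was at 0 counts in 4 of 6 libraries. Fewer cells of a type and less RNA per cell cannot be told apart in such bulk libraries.

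**Figure D1:**
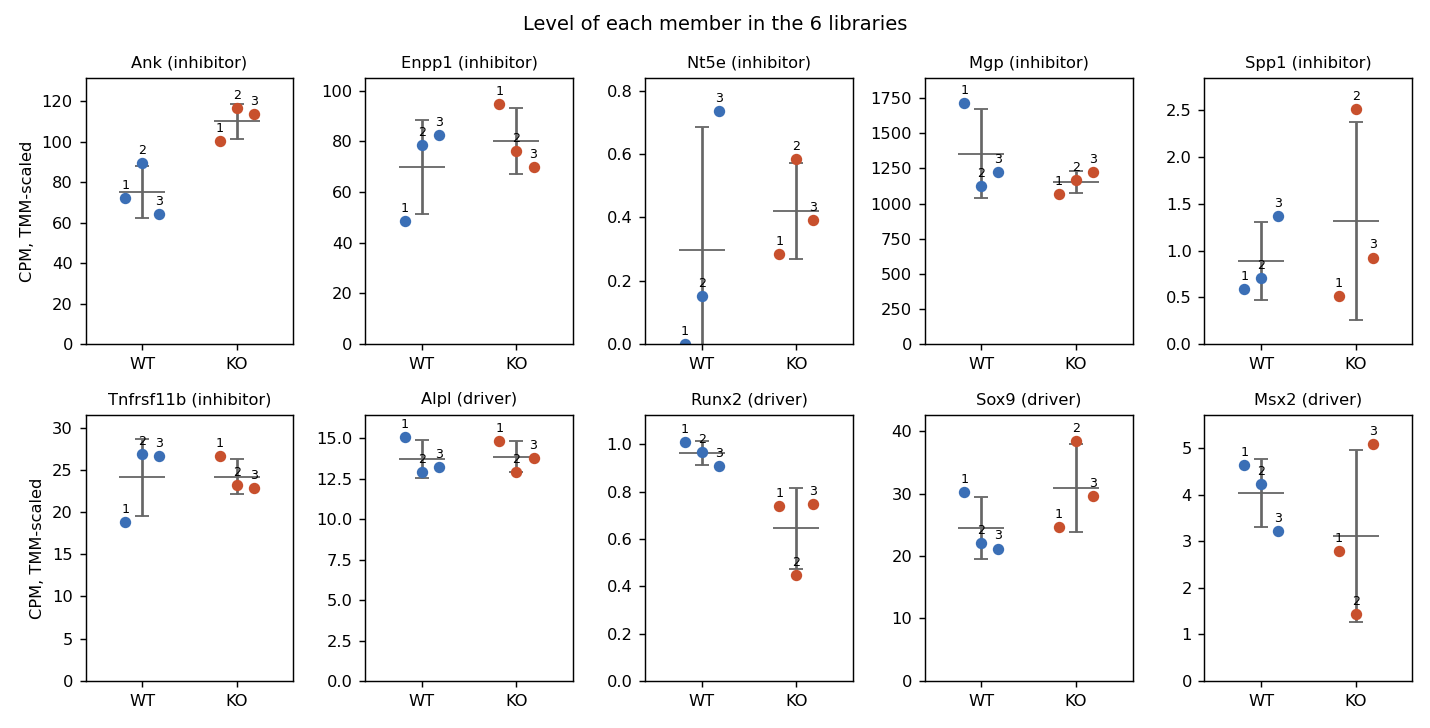
Level of each of the 10 members in CPM (vertical axis from 0, TMM-scaled) in the WT and KO libraries. Points are libraries with their replicate number, bars the mean ± SD of 3, with the WT bar of Nt5e cut at 0; Ank and Runx2 are the members whose groups do not overlap, and WT replicate 1 is the lowest WT point for Enpp1 and Tnfrsf11b and the highest for Mgp.

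Levels of different genes were compared per kilobase of the longest GENCODE coding transcript. Mgp stood far above the rest, at a mean of 2098 CPM per kilobase over the 6 libraries, and by CPM it was gene 93 of the table. Ank followed at 26.5 and Enpp1 at 11.1 CPM per kilobase, and their ranges did not overlap (18.4 to 33.2 and 7.18 to 14.0). This depends on the transcript length used. In CPM alone their ranges overlapped, and Enpp1 was above Ank in WT replicate 3 (82.5 against 64.2 CPM). Per kilobase, Tnfrsf11b (8.57) overlapped Enpp1 in range but was below it in 6 of 6 libraries. It was above Sox9 (6.71) in 4 of 6 libraries, and Sox9 was above Alpl (5.47) in 5 of 6, so the order of these neighbours differed between libraries. Tnfrsf11b and Alpl did not overlap (6.69 to 9.53 and 5.12 to 5.99). Msx2 (1.45) and Spp1 (0.733) overlapped, as did the lowest pair, Runx2 (0.124) and Nt5e (0.09998 CPM per kilobase).

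The pyrophosphate genes came first. Ank lies on mm10 chromosome 15 from 27466677 to 27594909, on the plus strand. It was at 71.9, 89.3 and 64.2 CPM in WT replicates 1, 2 and 3 and at 100.1, 116 and 113 CPM in KO replicates 1, 2 and 3. The lowest KO library was above the highest WT library. The log2 fold change, KO minus WT, was 0.55 ± 0.14 SE (edgeR unadjusted p = 0.00420, adjusted p = 0.561). A 2-sided exact permutation test of log2 CPM gave p = 0.1, the smallest that 3 libraries against 3 allow. Of all tested genes, 7.86% lay at least as far from 0. Ank overlaps 3 other genes, AC130671.2, AC130671.3 and Otulin, of which only Otulin is described here. Otulin, a deubiquitinase gene on the other strand, overlaps the 3′ end of Ank, and the sources used here do not say whether counting kept strand. Otulin was at 19.6 ± 2.42 CPM in WT and 18.7 ± 4.55 CPM in KO, a log2 fold change of −0.057 ± 0.19 SE (−0.27 without KO replicate 3 to 0.072 without KO replicate 1).

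Enpp1, the ectoenzyme that makes pyrophosphate, lies on chromosome 10 from 24637914 to 24712159. It was at 48.6, 78.5 and 82.5 CPM in WT replicates 1 to 3 and at 94.7, 76.0 and 69.8 CPM in KO replicates 1 to 3. The groups overlapped, and WT replicate 1 was the lowest library. Its fitted log2 fold change was 0.20 ± 0.21 SE (edgeR adjusted p = 0.822), and −0.0067 without WT replicate 1.

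Alpl, which hydrolyses pyrophosphate and releases phosphate, lies on chromosome 4 from 137741733 to 137796384. It was at 15.1, 12.9 and 13.2 CPM in WT and 14.9, 12.9 and 13.8 CPM in KO replicates 1 to 3. These 6 values had the narrowest relative range of the 10 members. The fit gave a log2 fold change of 0.013 ± 0.14 SE (edgeR adjusted p = 0.984).

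Since Enpp1 makes what Alpl destroys, their ratio within a library sets an inhibitor against a driver without any scaling. The log2 ratio of Enpp1 to Alpl counts was 1.69, 2.6005 and 2.64 in WT replicates 1 to 3 and 2.67, 2.55 and 2.34 in KO replicates 1 to 3. All but WT replicate 1 lay close together. The KO minus WT difference of 0.21 was smaller than the SD within WT of 0.540 (2-sided exact permutation p = 0.8, where 0.1 is the smallest possible), and it was −0.10 without WT replicate 1.

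Nt5e encodes CD73, which turns AMP into adenosine, and loss of this step leads to arterial calcification in people. It lies on chromosome 9 from 88327197 to 88372092. Its counts were 0, 3 and 21 in WT replicates 1 to 3 and 5, 13 and 11 in KO replicates 1 to 3. The groups overlapped. The count of 0 allows up to 3 counts (a 1-sided limit, counting error only), or 0.175 CPM by library total, without TMM scaling. Among the members, Nt5e was the one whose 3′ UTR held a match to the miR-21 seed of 7 bases or more, and the pair is shown because the deleted gene is this microRNA. Capitals mark the seed (bases 2 to 8) in the microRNA and the matching 8 bases in the transcript, which begin at base 519 of the UTR.
mmu-miR-21a-5p: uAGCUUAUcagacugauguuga
Nt5e 3′ UTR site: acaagtcttatgATAAGCTAagcagaaa
The microRNA sequence is RefSeq's, from GRCm38.p6, where its hairpin arm lies on chromosome 11 from 86584120 to 86584141 on the minus strand. The UTR is from GENCODE vM1 and gave sequence only. The searched matches, on the transcript strand, were ATAAGCTA (8mer), ATAAGCT and TAAGCTA (7mers, both contained in the 8mer) and TAAGCT (6mer, contained in all). A 7mer or 8mer occurred in 12.0% of the 11009 tested coding genes searched and an 8mer in 2.16%. Nt5e, which was not tested, is not among these genes. Of the fixed partner genes described below, Itgav and Sox5 held an 8mer and Cd44 and Sox6 a 7mer as best match. The other fixed partners held at most a 6mer. Enpp1 and Tnfrsf11b held the 6mer alone, and the other 7 members held no match. Their log2 fold changes, 0.20 for Enpp1 and 0.0019 for Tnfrsf11b, lay between those of the members without a match. Over the 11009 genes the median log2 fold change was 0.11 with an 8mer and 0.075 with a 7mer as best match. It was 0.037 with the 6mer alone and −0.016 with no match. These differences were not tested, and a match does not show that the microRNA binds there. The log2 ratio of Nt5e to Alpl was −6.18 and −4.14 in WT replicates 2 and 3 and −5.57, −4.42 and −5.08 in KO replicates 1 to 3, so the KO values lay between those of WT. In WT replicate 1, with 0 counts of Nt5e, the pseudocount of 0.5 sets the ratio, and it is no measurement. With that library the KO minus WT difference was 1.42 at a pseudocount of 0.5 and 0.41 at 5, and without it 0.14, so no difference is read from this ratio.

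Of the 13 tested genes of phosphate, pyrophosphate and adenosine handling, 0 passed in edgeR. Their fitted means were higher in KO for 5 and lower for 8 (median log2 fold change −0.039, against −0.00078 over all genes). At an unadjusted p under 0.05, 3 of the 13 were listed, against 6.29% of all genes. In the other pathway lists it was 2 of 12 osteoblast genes, 1 of 9 cartilage genes and 1 of 3 RANK and TRAIL genes. It was 0 of 16 BMP genes, 0 of 9 osteopontin receptors and 0 of 6 vitamin K genes. Counts this small say nothing particular about a list. Smpd3, a sphingomyelinase needed for skeletal mineralisation, was at 1.74 ± 0.492 CPM in WT and 0.802 ± 0.143 CPM in KO (−1.09 ± 0.36 SE, edgeR adjusted p = 0.760). Every KO library was below every WT library, as for 7.57% of all genes. Phospho1, a phosphatase of matrix vesicles named here after its values were seen, was at 9.36 ± 1.62 and 6.51 ± 1.52 CPM (−0.51 ± 0.22). Slc20a2, a phosphate importer whose loss calcifies brain vessels, was at 101 ± 20.3 and 130 ± 6.24 CPM (0.37 ± 0.16, and 0.21 without WT replicate 1). Slc20a1, the other sodium-dependent importer of this family, was at −0.14 ± 0.16 (−0.26 without WT replicate 2 to −0.042 without KO replicate 1). The phosphate exporter Xpr1 was at 0.28 ± 0.18 (0.086 without KO replicate 1). Abcc6, the transporter that releases ATP mainly from liver, had between 0 and 7 counts and was not tested. Entpd1, which makes the AMP that Nt5e uses, was also named after its values were seen and was at 225 ± 35.5 CPM in WT and 266 ± 12.9 CPM in KO (0.24 ± 0.14, and 0.12 without WT replicate 1).

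The mineral-binding inhibitors were next. Mgp, matrix Gla protein, is activated by vitamin K-dependent carboxylation and binds both mineral and BMP ligands. It lies on chromosome 6 from 136872435 to 136875823. It was at 1716, 1123 and 1223 CPM in WT and 1069, 1171 and 1226 CPM in KO replicates 1 to 3. WT replicate 1 was the highest library, and the other 5 lay between 1069 and 1226 CPM. Its log2 fold change was −0.23 ± 0.17 SE (edgeR adjusted p = 0.785), and −0.021 without WT replicate 1. Ggcx, the carboxylase that activates Mgp, was at 101 ± 23.4 CPM in WT and 108 ± 4.97 CPM in KO, a log2 fold change of 0.097 ± 0.17 SE (−0.081 without WT replicate 1). Vkorc1, which recycles vitamin K, was at −0.12 ± 0.16 (0.053 without WT replicate 1). Calu, an inhibitor of the carboxylase system, was at 0.20 ± 0.18 (0.019 without WT replicate 1) and Gas6, another carboxylated protein, at −0.15 ± 0.13 (−0.24 without KO replicate 1 to −0.059 without KO replicate 2). Of the 6 genes tested from this list 3 were fitted higher and 3 lower in KO, with a median of 0.0017, and 0 passed.

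Spp1 encodes osteopontin, a phosphoprotein that coats crystals. It lies on chromosome 5 from 104435118 to 104441050. Counts were few, at 10, 14 and 39 in WT and 9, 56 and 26 in KO replicates 1 to 3, or 0.594, 0.712 and 1.37 CPM and 0.512, 2.51 and 0.925 CPM. The lowest and the highest library were both KO. A log2 fold change of 0.54 ± 0.59 SE was fitted (edgeR adjusted p = 0.828), and −0.31 without KO replicate 2. Macrophages also make Spp1, and the C1q genes, which mark macrophages, had 9, 4 and 37 summed counts in WT and 4, 34 and 12 in KO replicates 1 to 3. WT replicate 3 and KO replicate 2 thus held both the most Spp1 and the most C1q, and these were also the 2 libraries with the most Nt5e. The rest of the macrophage list was split. Lyz2 and Adgre1 were also highest in these 2 libraries, while Csf1r, Mrc1 and Ptprc were not, and Cd68 was highest in WT replicate 1 (2.68 CPM). Of the 8 endothelial markers, Cdh5 and Tek also had their highest CPM in WT replicate 3 and KO replicate 2 and the others did not. The list summed to 88.8 to 93.9 CPM in WT and 86.2 to 92.2 CPM in KO, most of it Eng and Pecam1. The part of either cell type in the Spp1 and Nt5e counts was not tested.

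**Figure D2:**
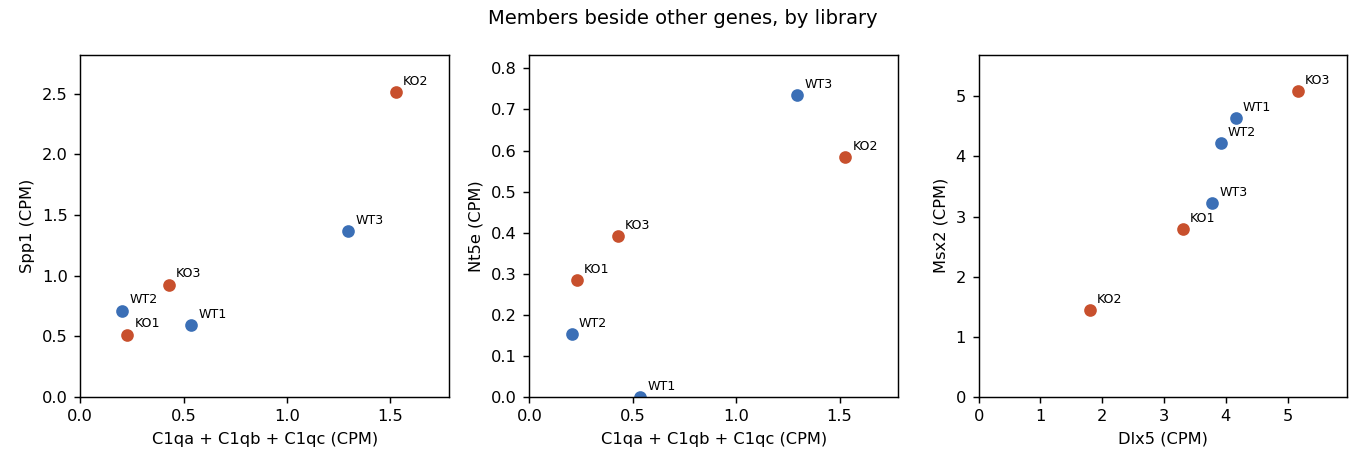
Spp1 and Nt5e against the summed C1q genes, and Msx2 against Dlx5, all in CPM on axes from 0, with 1 point per library (blue WT, red KO). WT replicate 3 and KO replicate 2 lie highest for Spp1, Nt5e and C1q, and Msx2 and Dlx5 are both lowest in KO replicate 2 and both highest in KO replicate 3.

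Receptors of osteopontin were abundant beside it. Itgav, the alpha chain of its integrin receptors, was at 203 ± 90.0 CPM in WT and 266 ± 55.4 CPM in KO, a log2 fold change of 0.39 ± 0.32 SE (0.067 without WT replicate 1). Itgb3, its partner beta chain, was at 0.087 ± 0.17 (−0.077 without WT replicate 1), Itgb1 at 0.25 ± 0.20 (0.035) and Cd44, a further osteopontin receptor, at 0.12 ± 0.15 (0.014). Of 9 receptor genes 7 were fitted higher and 2 lower in KO, with a median of 0.12, and 0 passed in edgeR.

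Tnfrsf11b encodes osteoprotegerin, a soluble decoy receptor for RANKL and TRAIL. It lies on chromosome 15 from 54250619 to 54278484. It was at 18.8, 26.8 and 26.6 CPM in WT and 26.6, 23.2 and 22.9 CPM in KO replicates 1 to 3. WT replicate 1 was again the library apart, and the other 5 lay between 22.9 and 26.8 CPM. For this gene the log2 fold change was 0.0019 ± 0.16 SE (edgeR adjusted p = 0.998), and −0.14 without WT replicate 1. The receptor RANK, Tnfrsf11a, was at 88.9 ± 21.5 CPM in WT and 120 ± 9.15 CPM in KO, and its 3 KO libraries were above all WT libraries, as for 6.95% of all genes. Its log2 fold change was 0.43 ± 0.18 SE (edgeR adjusted p = 0.778), and 0.24 without WT replicate 1. Tnfrsf10b, the mouse TRAIL death receptor, was at −0.21 ± 0.14 (−0.14 without WT replicate 1). Of the 3 genes tested from this list 2 were fitted higher and 1 lower in KO, with a median of 0.12, and 0 passed. Tnfsf11, which encodes RANKL, was not analysed here.

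**Figure D3:**
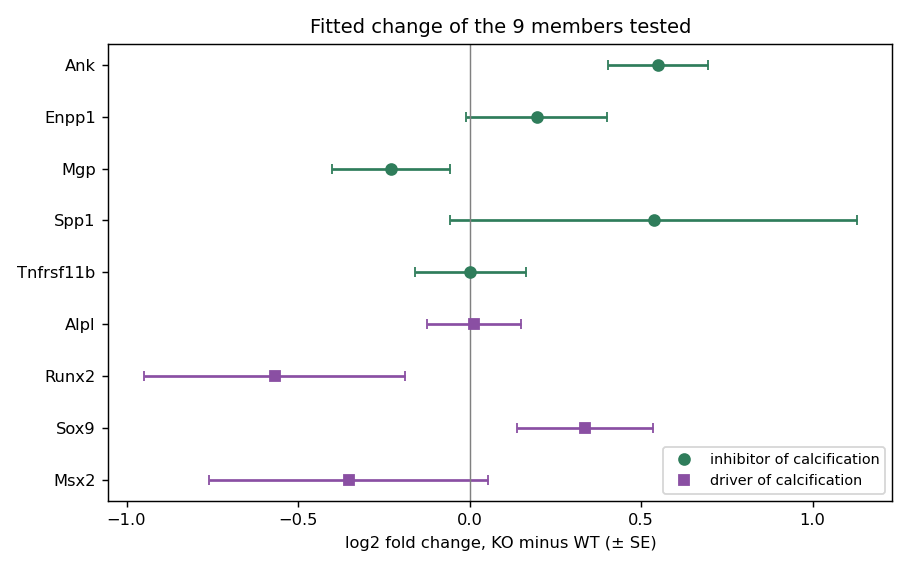
Fitted log2 fold change, KO minus WT, with its SE for the 9 members tested (horizontal axis), circles for inhibitors and squares for drivers. Ank has the highest value at 0.55 and Runx2 the lowest at −0.57, and both roles fall on either side of 0.

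The transcription factors followed. Runx2, required for osteoblast formation, lies on chromosome 17 from 44495987 to 44814797. Its counts were 17, 19 and 26 in WT and 13, 10 and 21 in KO replicates 1 to 3, or 1.01, 0.966 and 0.910 CPM and 0.740, 0.449 and 0.747 CPM. Each KO library was below each WT library on the CPM scale. The counting interval of the lowest KO library (10 counts, 4.80 to 18.4, exact Poisson at 95%, counting error only) and that of WT replicate 2, a library of like depth (19 counts, 11.4 to 29.7), overlapped. The log2 fold change was −0.57 ± 0.38 SE (edgeR adjusted p = 0.778; exact permutation p = 0.1, the smallest possible). Supt3, which overlaps Runx2 on the other strand, was at 4.997 ± 0.691 and 4.83 ± 0.996 CPM, and the antisense Runx2os1 had 3 counts or fewer in every library.

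Genes that Runx2 is known to activate in bone lay on both sides of 0. Ibsp, bone sialoprotein, was at 1.80 ± 0.527 CPM in WT and 3.25 ± 0.904 CPM in KO (0.83 ± 0.33 SE, edgeR adjusted p = 0.778, and 0.62 without WT replicate 1). Its groups did not overlap, but KO replicate 3 was at 2.21 CPM and WT replicate 2 at 2.14 CPM. Col1a1, the main collagen chain of bone and also of the vessel wall, was at 2153 ± 201 and 1722 ± 149 CPM (−0.32 ± 0.13, and −0.24 without WT replicate 1), again with no overlap. Groups did not overlap for 14.5% of all genes. Sp7, the osteoblast factor downstream of Runx2, had 2 to 10 counts and was not tested, and Bglap was not analysed here. Of 12 osteoblast genes tested 4 were fitted higher and 8 lower in KO, with a median of −0.12, and 0 passed in edgeR.

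Sox9, the master factor of cartilage, lies on chromosome 11 from 112782224 to 112787760. It was at 30.3, 22.2 and 21.2 CPM in WT and 24.6, 38.5 and 29.7 CPM in KO replicates 1 to 3. The groups overlapped through WT replicate 1, which lay above KO replicates 1 and 3. Sox9 had a log2 fold change of 0.34 ± 0.20 SE (edgeR adjusted p = 0.778), 0.52 without WT replicate 1 and 0.15 without KO replicate 2. Its partner factors Sox5 and Sox6 were at 0.30 ± 0.22 (0.015 without KO replicate 2) and −0.051 ± 0.25 (0.19 without WT replicate 1 and −0.32 without KO replicate 2), and Sox5 was also highest in KO replicate 2. Acan, which encodes the proteoglycan aggrecan and is a Sox9 target, was at 44.4 ± 15.1 CPM in WT and 63.2 ± 9.82 CPM in KO (0.51 ± 0.22, edgeR adjusted p = 0.778, and 0.82 without WT replicate 2). Col2a1, the cartilage collagen and another Sox9 target, had 1 to 9 counts and was not tested. Col10a1, the collagen of hypertrophic cartilage, had a log2 fold change of 0.69 ± 0.38 at no more than 1.03 CPM. Of 9 cartilage genes tested 4 were fitted higher and 5 lower in KO, with a median of −0.048, and 0 passed.

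Msx2, a homeobox factor induced by BMP signals, lies on chromosome 13 from 53466884 to 53473074. It was at 4.64, 4.22 and 3.22 CPM in WT and 2.79, 1.44 and 5.09 CPM in KO replicates 1 to 3. KO replicate 2 was the lowest and KO replicate 3 the highest of all libraries, so the KO range enclosed the WT range. Msx2 had a log2 fold change of −0.35 ± 0.41 SE (edgeR adjusted p = 0.835), −0.0086 without KO replicate 2 and −0.93 without KO replicate 3. Dlx5, another homeobox gene of bone, named after its values were seen, was at 3.30, 1.80 and 5.16 CPM in KO replicates 1 to 3 and so had the same order. Nog, an antagonist of BMP ligands also named after its values were seen, was highest in KO replicate 3 too, at 35 counts against 5 to 12 elsewhere. Bmp2, a ligand that can induce Msx2, was at 42.1 ± 4.996 CPM in WT and 31.9 ± 7.72 CPM in KO (−0.40 ± 0.18, edgeR adjusted p = 0.778, and −0.61 without KO replicate 2). Bmp4 was at −0.30 ± 0.30 (−0.13 without WT replicate 2). The BMP response gene Id1 was at 0.046 ± 0.22 (0.30 without WT replicate 1 and −0.15 without WT replicate 3), and Id4 at 0.24 ± 0.13 (0.13 without KO replicate 3). Of 16 genes tested from the BMP list 9 were fitted higher and 7 lower in KO, with a median of 0.035, and 0 passed.

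**Figure D4:**
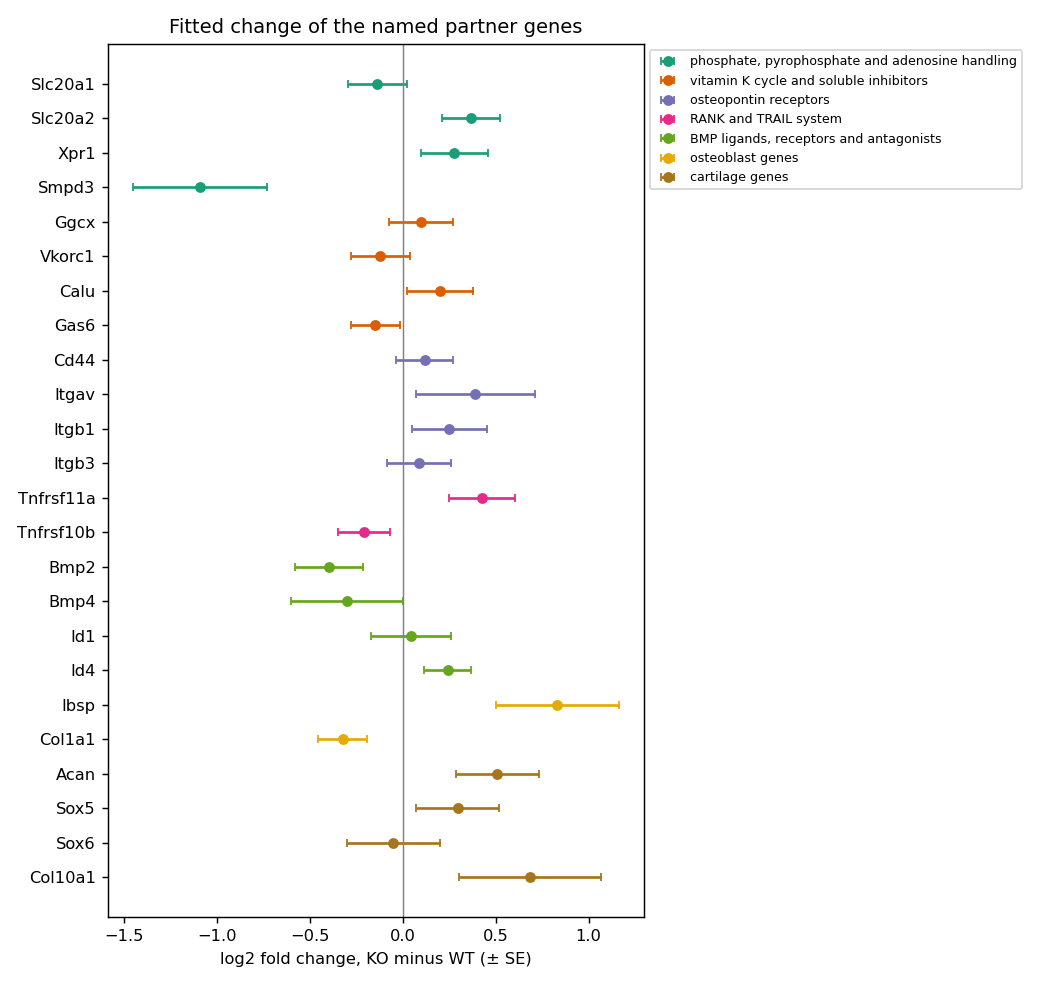
Fitted log2 fold change, KO minus WT, with its SE (horizontal axis) for the named partner genes that were tested, coloured by list. Smpd3 has the lowest value at −1.09 and Ibsp the highest at 0.83; none passed the adjusted threshold.

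Set against each other, the 5 tested inhibitors had a median log2 fold change of 0.20 and the 4 drivers one of −0.17, beside −0.00078 over all genes. Of the inhibitors 4 were fitted higher and 1 lower in KO, and of the drivers 2 higher and 2 lower, where 49.9% of all genes were higher and 50.1% lower. Those fitted higher include Tnfrsf11b at 0.0019 and Alpl at 0.013, and the sign of both, of Enpp1 and of Spp1 changed in some alternatives. The inhibitor median was −0.0067 without WT replicate 1, and the driver median was 0.026 without KO replicate 2. By library, the median of the inhibitors' log2 CPM, each centred on its mean over the 6 libraries, was −0.35, −0.017 and 0.15 in WT and 0.15, 0.047 and −0.036 in KO replicates 1 to 3. The same median of the drivers was 0.25, 0.093 and −0.048 in WT and −0.11, −0.39 and 0.066 in KO. WT replicate 1 had the lowest inhibitor value and the highest driver value of the 6, and the genotypes overlapped for both roles.

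**Figure D5:**
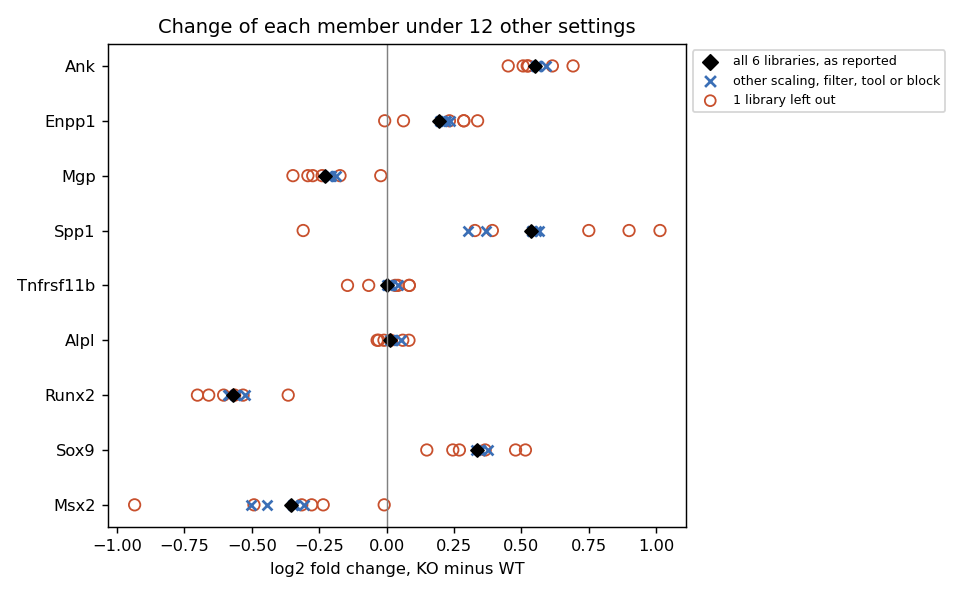
Log2 fold change, KO minus WT (horizontal axis), of the 9 tested members with all 6 libraries (diamonds), with another scaling, filter, tool or block (crosses) and with 1 library left out (circles). Ank stays between 0.45 and 0.69 and Runx2 between −0.70 and −0.36, while Enpp1, Spp1, Tnfrsf11b and Alpl cross 0.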

How the data were processed

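Bulk RNA libraries from 3 WT and 3 KO samples were used. RNA was taken with Trizol and libraries were made with a TruSeq RNA kit, per the labels' protocols. STAR 2.6, DESeq2 and mm10 stand in the submitters' processing notes, while counting tool and strand setting were not given in the sources used here. As one table, the authors deposited expected counts (estimated counts per gene, not normalised), as read from the values. They were rounded, filtered with filterByExpr (minimum count 10; 15185 genes kept) and scaled with TMM. edgeR 4.0.16 (R 4.3.3) gave quasi-likelihood tests (robust, 2-sided, Benjamini-Hochberg over all genes, threshold 0.05), and was tested on simulated data. SE is the fold change over the square root of F. Log2 CPM used a prior count of 2 and the ratios a pseudocount of 0.5. Positions are 1-based on mm10, and 1 was subtracted from the deposited stop. That stop lay 1 base past the RefSeq gene end for 6 of 10 members and equalled it for 0. Over 17008 matched genes it lay 1 base past for 4672 and was equal for 411. The deposited start equalled the RefSeq start for 5 of 10 members. Members and gene lists were chosen with earlier results of these data known. Named were all members, fixed partners, and the 2 genes of smallest p in each pathway list. Outside this rule, Phospho1, Entpd1, Otulin, Supt3, Runx2os1, Dlx5, Nog, Vmp1 and Mmp9 were named after values were seen. Ihh and single cell type markers were also named outside it. Alternatives were RLE factors, library totals, no filter, DESeq2 1.42.0, limma voom 3.58.1, the replicate number as a block, and leaving out each library. Lists of osteoclast, adventitial fibroblast, adipocyte and nerve markers were summed as well.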

Additional observations from a re-analysis of the deposited data

How the results depend on the processing

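Over all genes, edgeR called 0 genes (955 at an unadjusted p under 0.05), DESeq2 66 and limma voom 0. Leaving out 1 library gave 0 to 9 calls (9 without WT replicate 1, 1 without WT replicate 2). No setting called a member; the lowest adjusted p of Ank was 0.125, in DESeq2, and the highest 0.962, with the replicate block. Leaving out 1 library moved the inhibitor median from −0.0067 to 0.34 and the driver median from −0.34 to 0.026. The Enpp1 to Alpl difference was −0.10 without WT replicate 1, and that of Nt5e to Alpl 0.14 to 2.57 with 1 library left out and 0.41 with a pseudocount of 5. Sign changed for Enpp1 (−0.0067 without WT replicate 1), Spp1 (−0.31 without KO replicate 2, up to 1.02 without WT replicate 3), Tnfrsf11b (−0.14 without WT replicate 1 and −0.066 without KO replicate 1, up to 0.085 without WT replicate 2) and Alpl (−0.029, −0.0094 and −0.035 without WT replicates 2 and 3 and KO replicate 1, up to 0.083 without WT replicate 1); for the other 5 tested members it held in all 12 alternatives. With library totals, 643 genes were higher and 376 lower at an unadjusted p under 0.05, against 433 and 522. The replicate numbers did not pair the libraries (correlations of same-numbered deviations −0.27 to −0.084; 0 of 6 libraries closest to their own number). With the replicate block 0 genes were called, 572 had an unadjusted p under 0.05, the role medians were 0.22 and −0.24 and the ratio differences 0.21 and 1.42. Nt5e could be tested without the filter (0.38 ± 0.89) and in DESeq2 (0.45 ± 1.05). Low counts, at most 56 in a library, limit what can be seen for Spp1, Nt5e and Runx2. The cause of these shifts was not tested.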

Other observations

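The cartilage ligand gene Ihh, Indian hedgehog, was counted in every library, at 614, 414 and 495 counts in WT and 363, 517 and 789 in KO replicates 1 to 3, although Col2a1 stayed under 10 counts. Mmp9, a gelatinase gene held in the osteoclast list, was named after its values were seen. It had 19, 17 and 53 counts in WT and 62, 42 and 85 in KO (log2 fold change 1.10), and did not pass in edgeR. Its groups did not overlap in CPM, as for 6.95% of all genes in this direction. The gap was narrow, with WT replicate 3 at 1.86 CPM and KO replicate 2 at 1.89 CPM. Other osteoclast genes were low or overlapped, with Acp5 at 1 to 17 counts and Ctsk at 143 to 290. The summed osteoclast list was at 10.9 to 15.04 CPM in WT and 10.501 to 12.7 CPM in KO, adventitial fibroblast markers at 218 to 256 and 168 to 270.1 CPM, adipocyte markers, read from Fabp4 alone, at 53.5 to 74.5 and 38.9 to 68.8 CPM, and nerve and Schwann markers at 2.31 to 3.39 and 1.53 to 2.51 CPM.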
